A study of Mus musculus with 12 samples.

Results

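The genes described here are 49 cell cycle genes, taken by symbol from the 23337 genes of the deposited tables. They were sorted by textbook role into 9 G1 drivers (D and E cyclins, their kinases and E2f1), 6 brakes and exit genes, 11 S phase genes and 23 M phase genes, and all of them had reads. RNA was sequenced from sorted mouse cardiomyocytes (CMs), the muscle cells of the heart, in 4 groups of 3 samples. All animals received AAV9-cTNT-Cre, a virus that expresses Cre recombinase from a cardiac troponin T promoter, and carried a fluorescent reporter that Cre switches on. In the knockout (KO) animals both copies of Srf, which encodes serum response factor, were floxed. In the control (CTRL) animals 1 copy was floxed and the other intact, so CTRL CMs also lost 1 copy where Cre acted. Neonatal animals were injected at postnatal day 1 (P1) and their CMs were isolated at P14, and adult animals were injected at P60 and their CMs isolated at P90. Transduction was mosaic, and only fluorescent CMs, freed by collagenase perfusion, were sorted. The design text names 3 biological replicates per group, but no label ties a library to an animal.

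Mammalian CMs divide before birth, pass through a last round of DNA synthesis in the first postnatal days that often ends without division, and then leave the cell cycle. D cyclins with Cdk4 and Cdk6, and E cyclins with Cdk2, inactivate the retinoblastoma protein and release E2F factors, which switch on the genes of DNA replication. Genes of G2 and mitosis follow later, largely through B-Myb and FoxM1 at promoter elements called CHR. In quiescent cells the DREAM complex holds both sets of genes down, and inhibitors such as p21 (Cdkn1a) and p27 (Cdkn1b) restrain the kinases.

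The promoters below are shown because they hold the elements named above, which the rule for the members did not use. Promoter sequences of RefSeq (GRCm38.p6, the assembly that mm10 also names), from 250 bases before to 50 bases after a transcription start, were matched to 40 of the 49 members by symbol. CHR was searched as TTTGAA or TTCGAA, the CCAAT box as CCAAT, and E2F elements as TTTCCCGC, TTTCGCGC, TTTGGCGC or TTTGCCGC, on both strands. Capitals mark these matches, and neighbouring E2F matches may overlap. Top2a and Cdk1 are M phase genes that fell between P14 and P90, Cenpa and Cenpf are M phase genes that did not fall, and Mcm6 is an S phase gene.
Top2a, chr11:99024140-99024439, minus strand: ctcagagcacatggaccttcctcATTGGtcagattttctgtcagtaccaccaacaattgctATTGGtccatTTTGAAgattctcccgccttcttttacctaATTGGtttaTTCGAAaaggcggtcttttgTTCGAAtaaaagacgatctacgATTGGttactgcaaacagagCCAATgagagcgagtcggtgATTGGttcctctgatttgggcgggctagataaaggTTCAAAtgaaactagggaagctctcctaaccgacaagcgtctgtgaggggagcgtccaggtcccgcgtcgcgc
Cdk1, chr10:69352863-69353162, minus strand: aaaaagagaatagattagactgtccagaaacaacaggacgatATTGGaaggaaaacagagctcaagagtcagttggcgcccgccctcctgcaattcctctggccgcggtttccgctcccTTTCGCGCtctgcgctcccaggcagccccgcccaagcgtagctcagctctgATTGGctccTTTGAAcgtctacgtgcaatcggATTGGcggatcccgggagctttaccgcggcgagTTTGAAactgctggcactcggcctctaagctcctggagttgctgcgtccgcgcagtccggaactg
Cenpa, chr5:30666636-30666935, plus strand: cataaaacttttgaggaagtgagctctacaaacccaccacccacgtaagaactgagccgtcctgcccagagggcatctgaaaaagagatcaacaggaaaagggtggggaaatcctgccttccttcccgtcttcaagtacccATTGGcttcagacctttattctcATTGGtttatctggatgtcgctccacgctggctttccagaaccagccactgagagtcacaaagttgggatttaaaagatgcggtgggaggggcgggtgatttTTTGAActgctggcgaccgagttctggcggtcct
Cenpf, chr1:189688037-189688336, minus strand: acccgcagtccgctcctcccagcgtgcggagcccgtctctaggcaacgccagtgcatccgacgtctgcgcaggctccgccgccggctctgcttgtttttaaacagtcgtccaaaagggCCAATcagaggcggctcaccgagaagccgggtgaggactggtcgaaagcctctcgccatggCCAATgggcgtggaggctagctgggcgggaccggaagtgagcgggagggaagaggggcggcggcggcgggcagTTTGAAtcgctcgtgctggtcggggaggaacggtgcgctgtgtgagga
Mcm6, chr1:128359656-128359955, minus strand: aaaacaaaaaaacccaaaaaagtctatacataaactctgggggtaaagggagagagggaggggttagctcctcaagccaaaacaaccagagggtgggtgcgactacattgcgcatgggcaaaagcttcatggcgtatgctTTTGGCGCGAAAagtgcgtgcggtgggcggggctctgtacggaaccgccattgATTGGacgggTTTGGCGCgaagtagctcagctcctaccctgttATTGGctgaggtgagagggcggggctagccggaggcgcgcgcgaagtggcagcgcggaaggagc

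A CHR match was present in 15 of 19 M phase genes (78.9%), in 2 of 10 S phase genes (20%), and in 0 of 6 G1 drivers and 0 of 5 brakes. Of all 27025 genes with a promoter outside chr18, 21.7% had one. A CCAAT box was present in 84.2% of the M phase genes, 80% of the S phase genes, 80% of the brakes (4 of 5) and 33.3% of the G1 drivers, against 41.1% of all genes. E2F letters were present in 4 of 10 S phase genes (40%), in 1 of 19 M phase genes (5.26%), Cdk1, in 1 of 6 G1 drivers (16.7%), Cdk2, and in 0 of 5 brakes, against 2.6% of all genes. The Mcm6 promoter held 3 E2F matches, of which a pair overlapped, and the Top2a promoter held 4 CHR and 6 CCAAT matches. Cenpa and Cenpf, which did not fall, each had 1 CHR and 2 CCAAT matches. A CArG box, the DNA element bound by SRF, was matched in 1.81% of all genes and among the 40 members in 1, Tyms. These matches are descriptions of letters and not measured binding.

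Total counts ranged from 9740389 to 23103460 per library, so that 3 reads, used here as a floor for counting error only, correspond to 0.130 to 0.308 CPM (counts scaled to the size of the library). Srf RNA in KO was 40.7% of CTRL at P14 (log2 fold change -1.30, adjusted p = 0.0628 by edgeR's quasi-likelihood test) and 42.5% at P90 (-1.23, adjusted p = 0.00347). In replicates 1 to 3 it was at 32.1, 27.5 and 9.74 CPM in P14 KO and at 32.8, 28.9 and 28.1 CPM in P90 KO. The summed level of 8 CM markers was 66748 to 101130 CPM. Markers of other cells were also present, with summed levels per library of 214.9 to 478 CPM for 8 endothelial genes and 52.1 to 349 CPM for 8 fibroblast genes. Those of 6 smooth muscle and pericyte genes were 76.4 to 219.5 CPM and those of 8 macrophage and leukocyte genes 6.20 to 24.8 CPM. Of 4 erythroid genes, 2 or 3 were at 0 in every library. Y-linked reads marked 3 libraries as male, namely replicate 1 of P14 CTRL, replicate 3 of P14 KO and replicate 3 of P90 CTRL, so sex was mixed.

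Replicate 3 stood apart for these genes in both P14 groups. In CTRL it had the highest level of 11 of 11 S phase and 23 of 23 M phase genes, and in KO of 11 of 11 and 22 of 23. The summed level of the M phase genes in P14 CTRL was 99.6, 74.0 and 265.8 CPM in replicates 1 to 3, and in P14 KO it was 112.8, 133.4 and 205.2 CPM. At P90 the 6 libraries lay between 56.9 and 97.6 CPM. The fibroblast sum was not highest in replicate 3, at 325.8, 116.8 and 260.6 CPM in P14 CTRL and 220.9, 349 and 196 CPM in P14 KO. Counts and fold changes that move with replicate 3 are also given without it.

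**Figure D1:**
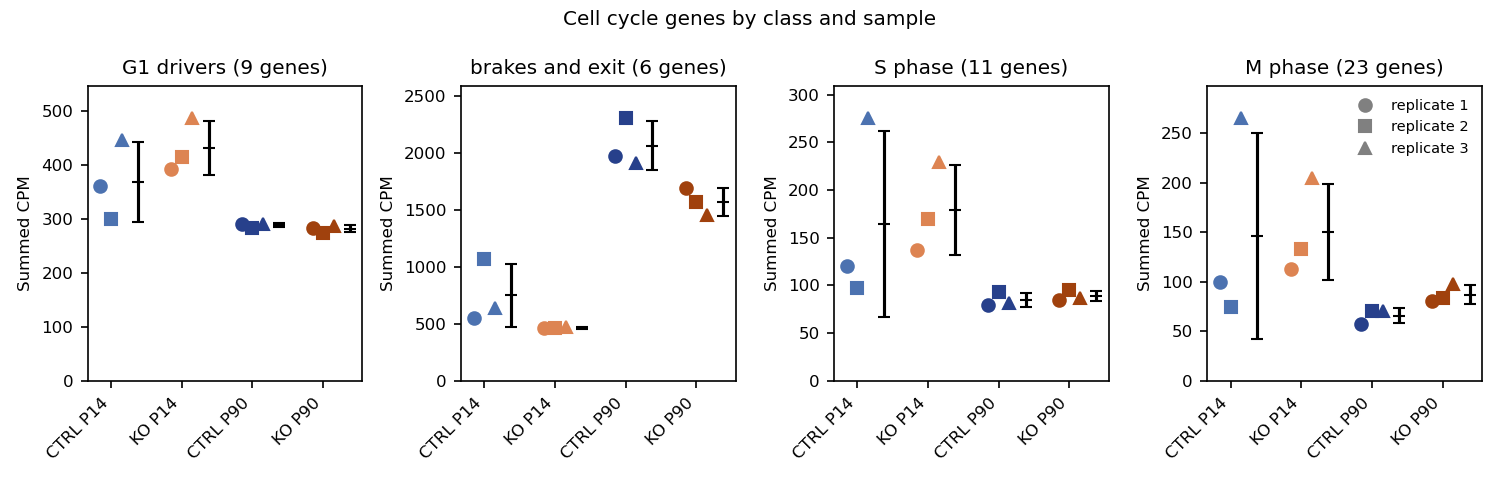
Summed CPM (linear axes from 0) of the G1 drivers, brakes, S phase and M phase genes in each sample, with marker shape giving the replicate and the black bar the mean ± SD (n = 3). The S and M phase sums of P14 replicate 3 (triangles) lie above the other replicates in both genotypes, and the brakes, whose sum is mostly Ccng1, are higher at P90 than at P14.

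The first comparison asked how the cell cycle genes differed between P14 and P90 in CTRL CMs. Most M phase genes and 6 of 11 S phase genes were lower at P90, while the D and E cyclins and all but 1 of the brakes did not pass the test. Of 46 members tested, 25 fell and 1 rose, where 29.3% of the 12294 genes tested passed the threshold, 14.9% lower and 14.5% higher. By class, 15 of 20 M phase genes fell (median log2 fold change -3.38), as did 6 of 11 S phase genes (-1.34) and 4 of 9 G1 drivers (-0.48). None of the 6 brakes fell and 1 rose (median -0.05), and the median of all genes tested was -0.01. The filter asked for enough reads in the libraries of a single group only. In the P90 libraries alone it kept 8 of 23 M phase genes and 8 of 9 G1 drivers. Genes not kept there entered through P14, where they were higher, and could be called only as lower. For them the counts and medians are description only. The difference between the S and M phase classes was not tested. Their summed levels fell 1.93-fold for S phase and 2.22-fold for M phase genes, the latter with Cenpa and Cenpf described below. Without P14 CTRL replicate 3 these sums fell only 1.28-fold and 1.32-fold. In 25 of the 46 members every P90 library lay below every P14 library, against 22.8% of all genes tested, and in 1 every P90 library lay above, against 22.1%. Without P14 CTRL replicate 3, 20 members were past the threshold, 19 lower and 1 higher (13 M phase, 3 S phase and 3 G1 genes lower), with class medians of -2.53 for M phase and -0.65 for S phase genes. Without P90 CTRL replicates 1, 2 and 3 the count was 9, 17 and 15.

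In bulk RNA, fewer cycling cells and less RNA per cell cannot be told apart, nor can stage be told apart from differences in handling or sequencing between the 2 tables. Fibroblast and endothelial markers moved in the same direction as the S and M phase genes. In CTRL, 5 of 7 fibroblast and 5 of 8 endothelial markers tested were lower at P90, and the fibroblast sum was 234 ± 107 CPM at P14 and 60.4 ± 11.3 at P90 (SD, n = 3). The endothelial sum was 355 ± 121 and 238 ± 37.1 CPM. The macrophage and leukocyte sum had a higher mean at P90, 17.5 against 8.82 CPM. The libraries overlapped, at 6.20 to 10.6 CPM at P14 and 9.54 to 24.8 CPM at P90. Of 6 such markers tested, 1 passed, Cd74, which rose by 2.67 on the log2 scale (adjusted p = 0.00490, edgeR). The median was 0.15, with 3 of the 6 below 0. The part of other cells in the stage difference was not tested.

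Among the M phase genes, Top2a, the topoisomerase that untangles sister DNA, had 5.30, 2.40 and 17.7 CPM in the P14 CTRL samples and 0.0515, 0.760 and 0.158 CPM at P90. The P90 samples were all below the P14 samples and near the 3-read floor, and the log2 fold change was -4.99 ± 0.98 (SE, adjusted p = 0.00599, edgeR). Anln, which encodes the anillin scaffold of the cleavage furrow, was at 2.06, 2.20 and 10.4 CPM at P14 and at 0.258, 0.434 and 0.237 CPM at P90 (-4.01 ± 0.80, adjusted p = 0.00641, edgeR). Prc1, a bundler of spindle midzone microtubules, went from 4.74, 3.10 and 16.5 CPM to 0.619, 0.978 and 0.395 CPM (-3.64 ± 0.70, adjusted p = 0.00565, edgeR). In each of these genes the 2 lower P14 samples were also above all P90 samples, and without P14 replicate 3 the log2 fold changes were -3.85 for Top2a, -2.81 for Anln and -2.59 for Prc1, all still past the threshold. Birc5, the survivin subunit of the chromosomal passenger complex, fell from 1.60, 1.25 and 4.38 CPM to 0.103, 0.217 and 0.158 CPM (-3.95 ± 0.70, adjusted p = 0.00383, edgeR). It had 6 reads summed over the P90 CTRL libraries, and every one of these libraries was below the floor. Anln had 12 such reads, so both fold changes rest on few reads. Cdk1, the kinase that drives entry into mitosis, fell by 3.55 and the proliferation antigen Mki67 by 3.83 on the log2 scale. Ccnb1, Plk1, Bub1 and Aurkb had 1, 2, 2 and 3 reads summed over the 3 P90 CTRL libraries, so no fold change is given for them.

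2 M phase genes had log2 differences near 0. Cenpa, the histone H3 variant of centromeres, was at 18.2, 22.1 and 41.3 CPM at P14 and 28.0, 24.7 and 31.7 CPM at P90, with a log2 difference of 0.05 (95% interval -0.57 to 0.68). Cenpf, a large kinetochore and nuclear matrix protein, was at 25.2, 19.0 and 32.4 CPM at P14 and 18.2, 28.8 and 25.9 CPM at P90 (-0.08, interval -0.60 to 0.44). In both genes the stages overlapped. For Cenpa the overlap rested on P14 replicate 3, since the other P14 samples lay below every P90 sample. Both genes together held most of the M phase reads at P90. The other 21 M phase genes, a set trimmed after the values were seen and so only described, summed to 93.7 ± 86.0 CPM in P14 CTRL and 13.4 ± 3.31 CPM in P90 CTRL (SD, n = 3), a ratio of 6.99, or 3.32 without P14 replicate 3. The other 3 M phase genes tested but not past the threshold, Aurka, Kif20a and Mad2l1, all had negative log2 differences, down to -2.26.

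The S phase genes fell less far and stayed above the floor. Mcm6, a subunit of the replicative helicase, had 9.95, 5.10 and 26.1 CPM in P14 CTRL and 1.96, 2.82 and 2.69 CPM in P90 CTRL, a log2 fold change of -2.48 ± 0.56 (SE, adjusted p = 0.0108, edgeR). Mcm2, of the same helicase, went from 17.2, 13.2 and 51.0 CPM to 8.71, 9.45 and 8.46 CPM (-1.61 ± 0.46, adjusted p = 0.0282, edgeR). Rrm2, the ribonucleotide reductase subunit that limits dNTP supply in S phase, went from 7.18, 5.70 and 32.5 CPM to 2.99, 2.93 and 2.69 CPM (-2.39 ± 0.64, adjusted p = 0.0222, edgeR). These 3 genes show the same layout, with tight P90 samples and P14 samples led by replicate 3. Without that sample the log2 fold changes were -1.61 for Mcm6, -0.77 for Mcm2 and -1.16 for Rrm2, all still past the threshold, but of the 11 alternatives run Mcm6 passed in 10 and Mcm2 and Rrm2 in 8 each. Tyms, thymidylate synthase, fell by 1.34 on the log2 scale, from 2.30, 2.05 and 3.62 CPM to 0.773, 1.41 and 1.03 CPM (adjusted p = 0.0293, edgeR). Pcna, the replication clamp and per length the most abundant S phase member, differed least among those that fell, at 17.7, 16.3 and 18.4 CPM against 12.8, 13.7 and 12.7 CPM (-0.42 ± 0.14, adjusted p = 0.0494, edgeR). Tyms passed in 6 and Pcna in 3 of the 11 alternatives, and neither did without P14 replicate 3 (adjusted p = 0.0856 and 0.124, edgeR). The 5 S phase genes that did not pass had log2 differences from -1.77 to -0.30.

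G1 drivers split by gene. Cdk6 had 15.3, 9.55 and 12.9 CPM at P14 and 3.04, 3.48 and 2.69 CPM at P90, a log2 fold change of -2.04 ± 0.24 (SE, adjusted p = 0.000578, edgeR). Cdk4, the other kinase of the D cyclins, changed far less, from 62.5, 63.0 and 75.5 CPM to 51.2, 50.7 and 48.2 CPM (-0.42 ± 0.12, adjusted p = 0.0275, edgeR). Cdk2, the kinase of the G1 to S transition, fell from 23.3, 23.4 and 30.8 CPM to 12.6, 8.25 and 11.7 CPM (-1.23 ± 0.20, adjusted p = 0.00235, edgeR). E2f1, an activator of replication genes, fell from 1.60, 1.25 and 5.96 CPM to 0.103, 0.109 and 0.395 CPM (-3.83 ± 0.83, adjusted p = 0.00926, edgeR). Its fold change rests on 8 reads summed over the P90 CTRL libraries. In these 4 genes the P14 and P90 samples did not overlap. Cdk6 and Cdk2 passed in all 11 alternatives, E2f1 in 10 (-2.80 without P14 replicate 3) and Cdk4 in 6, not among them the one without P14 replicate 3 (adjusted p = 0.0880, edgeR). None of the D and E cyclins passed the threshold, with log2 differences between -0.53 and 0.21.

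The 1 member that rose was Ccng1, which encodes cyclin G1, a p53 target that is counted here among the brakes. It had 435, 911 and 515 CPM in the P14 CTRL samples and 1854, 2175 and 1753 CPM in the P90 CTRL samples, a log2 fold change of 1.64 ± 0.25 (SE, adjusted p = 0.00184, edgeR). The lowest P90 sample was above the highest P14 sample. Per length it was by far the most abundant member, with a mean of 308.8 RPKM (CPM divided by exon length in kilobases) over the 12 samples, against 45.1 for Cdk4, 37.5 for Ccnd3, 28.0 for Cenpa and 27.5 for Ccnd2. The other brakes did not pass the threshold in CTRL. Rb1, the retinoblastoma protein gene, was at 26.2, 36.1 and 27.0 CPM at P14 and 37.5, 44.3 and 35.6 CPM at P90 (log2 difference 0.40, interval 0.04 to 0.75, adjusted p = 0.0852, edgeR). Cdkn2c, an inhibitor of Cdk4 and Cdk6, was at 5.40, 5.95 and 6.61 CPM against 5.15, 4.78 and 5.14 CPM. Cdkn1b was at 4.50, 5.05 and 3.45 CPM against 3.92, 4.02 and 2.29 CPM. Cdkn1a varied more within groups than between them, with 37.5, 67.4 and 37.5 CPM at P14 and 20.9, 30.6 and 70.1 CPM at P90. Meis1, a transcription factor known to hold postnatal CMs out of the cycle, lay between 39.8 and 48.7 CPM in all 6 samples.

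**Figure D2:**
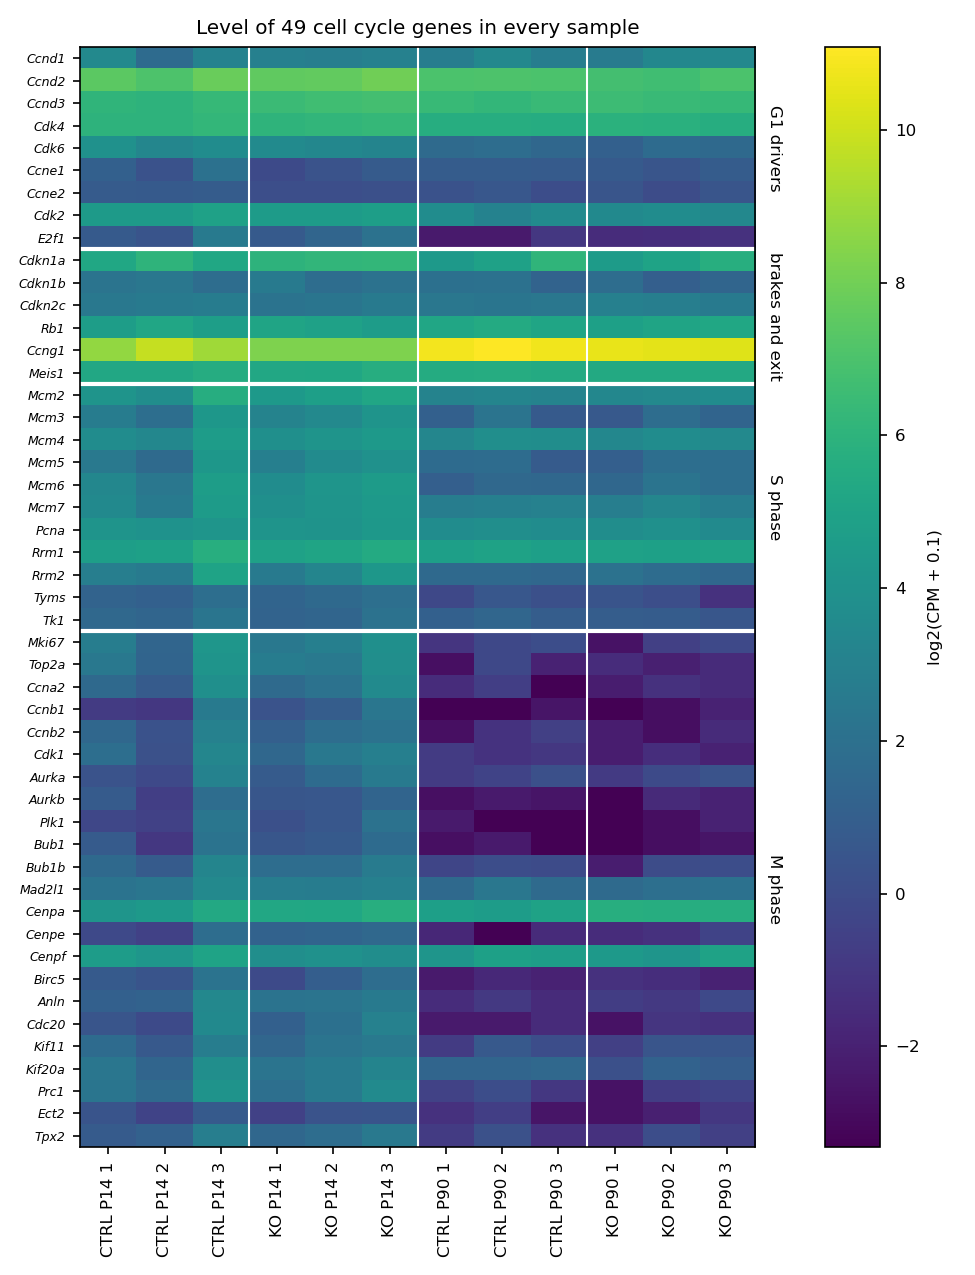
Level of each of the 49 members (rows, by class) in each of the 12 libraries (columns), as log2(CPM + 0.1). Most M phase rows are darker at P90 than at P14, while Cenpa and Cenpf are not and Mad2l1 and Kif20a differ less in CTRL, and Ccng1 is the brightest row, brighter at P90 than at P14.

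The same stage comparison in KO CMs, which shares no sample with the one in CTRL, gave a similar picture. Of 49 members tested, 38 fell and 2 rose, where 56.8% of the 12417 genes tested passed, 29.1% lower and 27.7% higher. The M phase genes fell in 21 of 23 cases (median log2 fold change -3.17), the S phase genes in 10 of 11 (-1.36) and the G1 drivers in 5 of 9 (-0.36). Of the brakes 1 rose and 2 fell (median 0.10), and the median of all genes tested was -0.03. As in CTRL, M phase genes that entered through P14 could be called only as lower, so their counts are description only. The summed levels fell 2.01-fold for S phase and 1.73-fold for M phase genes, or 1.72-fold and 1.41-fold without P14 KO replicate 3. Without P14 KO replicate 3, 39 members were past the threshold, 35 lower and 4 higher. Every P90 library lay below every P14 library in 37 members, against 33.4% of all genes tested, and above in 3, against 31.1%. Over the 46 members tested in both genotypes, the 2 sets of log2 differences had Pearson's r = 0.96 and Spearman's rho = 0.95, a description across genes that are not independent. 25 members fell in both genotypes, and the median distance between the 2 differences was 0.38. Here too 4 of 7 fibroblast and 4 of 8 endothelial markers were lower at P90, and the fibroblast sum was 255.5 ± 82.1 CPM at P14 and 63.2 ± 9.68 CPM at P90 (SD, n = 3).

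The standard errors of Top2a, Mcm6 and Cdk6 were smaller in KO than in CTRL. Top2a had 6.43, 5.59 and 13.6 CPM in P14 KO and 0.251, 0.138 and 0.238 CPM in P90 KO, a log2 fold change of -5.36 ± 0.51 (SE, adjusted p = 3.4e-05, edgeR). The P90 KO values of Top2a rest on 10 reads. Mcm6 had 12.6, 18.1 and 24.0 CPM against 2.70, 4.61 and 3.65 CPM (-2.30 ± 0.27). Cdk6 had 11.9, 9.99 and 9.04 CPM against 2.01, 3.14 and 2.93 CPM (-1.92 ± 0.21). In all 3 genes the stages did not overlap. Ccng1 had 313.7, 312.9 and 311 CPM in P14 KO and 1585, 1443 and 1311 CPM in P90 KO, a log2 fold change of 2.21 ± 0.10. Cenpf rose by 0.74 ± 0.19 (adjusted p = 0.00885, edgeR), from 14.0, 15.4 and 13.4 CPM to 21.3, 18.5 and 31.8 CPM, with no overlap. Cdkn1a fell from 63.9, 70.8 and 75.4 CPM to 23.6, 33.1 and 51.6 CPM (-0.96 ± 0.23, adjusted p = 0.00592, edgeR), and Cdkn1b fell by 0.78 on the log2 scale (adjusted p = 0.0442). Ccnd2, the D cyclin with the highest counts, fell by 0.90 (adjusted p = 0.000364) and had been at -0.44 in CTRL (adjusted p = 0.0928, edgeR). No genotype difference in these stage effects passed the test described further on.

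**Figure D3:**
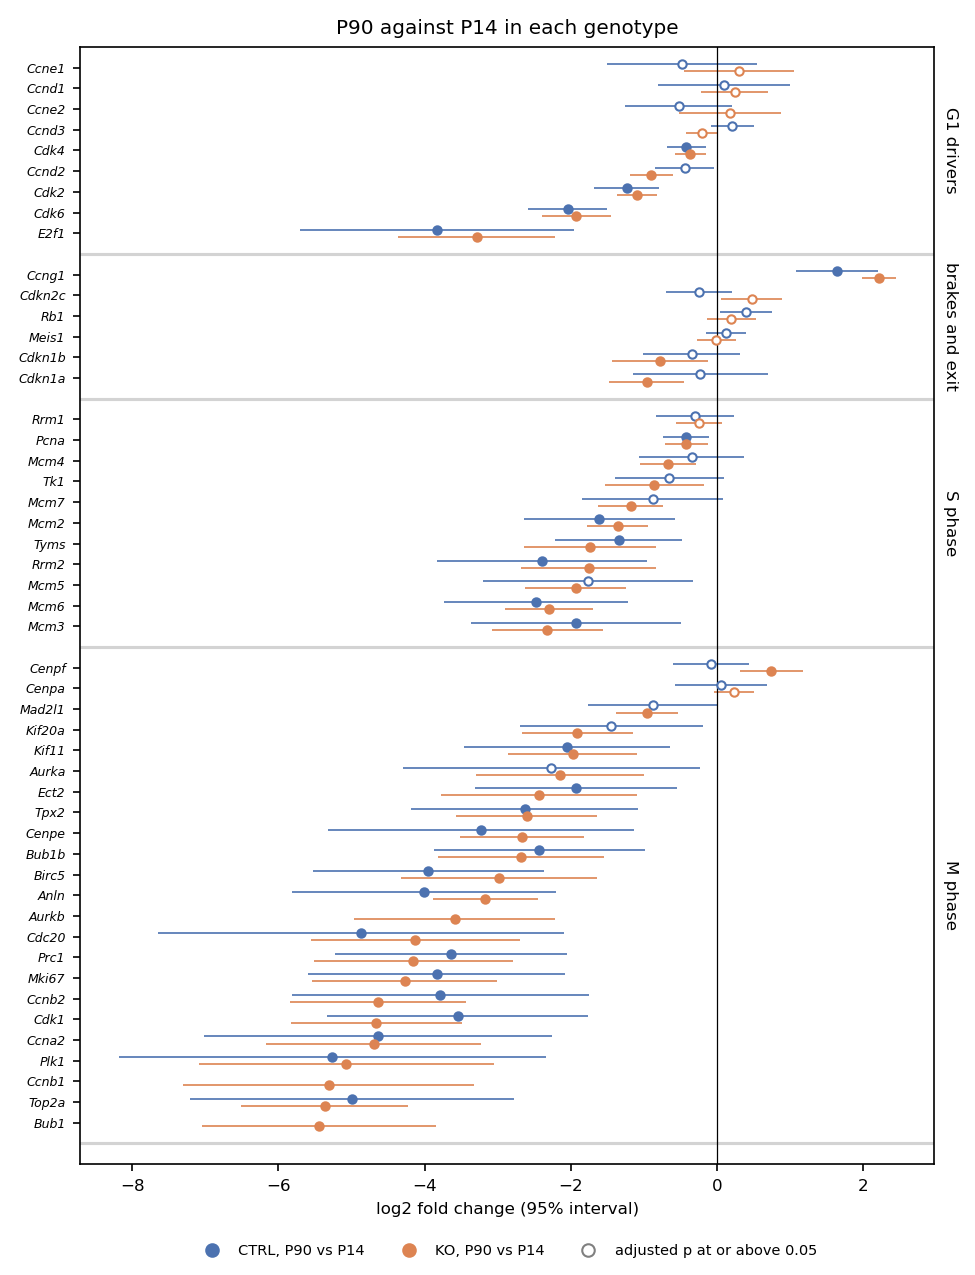
Log2 fold change of P90 against P14 for each member with its 95% interval, in CTRL (blue) and in KO (orange), with filled points for an adjusted p under 0.05 (edgeR) and members not tested in a genotype left blank. M phase genes lie furthest to the left, S phase genes between, and Ccng1 to the right in both genotypes. The points of Plk1 in CTRL and of Plk1, Ccnb1 and Bub1 in KO rest on 3 or fewer reads summed over the P90 libraries of that genotype.

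Other genes of the pathway, from lists of textbook members, were counted beside them. The shares of all genes to read these counts against are 14.9% lower and 14.5% higher in CTRL, and 29.1% lower and 27.7% higher in KO. Of 12 other G1 drivers tested in CTRL, 4 fell and 1 rose at P90, and in KO 5 fell and 2 rose. Those that fell in CTRL were Mybl2 (B-Myb), Foxm1 (-3.86), Mycn (-2.24) and Cks1b (-1.24). Mybl2 and Foxm1 act on genes of G2 and mitosis, as stated above, so this count is not one of G1 genes alone. Foxm1 had 9 reads over the P90 CTRL libraries. Mybl2 had 45 reads over the P14 CTRL libraries and 1 read over the P90 CTRL libraries, so no fold change is given for it. Of 29 other M phase genes tested in CTRL, 17 fell and 2 rose. Among those that fell, Kif22 (-4.63), Aspm (-4.03) and Hmmr (-4.17) had 4, 6 and 8 reads over the P90 CTRL libraries and Dlgap5 had 3, so these values rest on few reads. In KO 35 of 43 fell and 4 rose. In the P90 libraries alone 14 of the 50 listed were tested, and the others could be called only as lower. Of 39 other S phase genes, 8 fell and 1 rose in CTRL, and 19 of 40 fell and 6 rose in KO. The S phase gene that rose in CTRL was Gmnn, which encodes geminin, an inhibitor of replication licensing. It had 13.0, 18.9 and 20.1 CPM at P14 and 64.2, 52.6 and 69.8 CPM at P90 in CTRL (1.85 ± 0.18, SE). Those that fell included Gins2 (-2.71), Uhrf1 (-2.19) and Chaf1b, which had 67 reads over the P14 and 2 over the P90 CTRL libraries. Of 21 other brakes, 3 rose and 0 fell in CTRL by edgeR (14.3% higher, near the 14.5% of all genes, with 7 at an unadjusted p under 0.05 where 41.6% of all genes were). They were Rbl2 (1.01) and Lin52 (0.80), which encode DREAM subunits, and the repressor E2f6 (0.53). In KO 7 of 22 rose (31.8%, against 27.7% of all genes) and 3 fell. Of 18 other p53 targets, 2 rose and 5 fell in CTRL, and of 19 in KO 4 rose and 10 fell. This list also holds Trp53, the gene of p53 itself, counted among those that fell (-0.83 in CTRL and -0.81 in KO).

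The second question was whether loss of Srf changed the cell cycle genes. At P14, 3 of 49 members passed the threshold in KO against CTRL, which is 1 higher and 2 lower, where 8.59% of the 12546 genes tested passed, 3.99% higher and 4.6% lower. The share of members past the threshold was thus near that of all genes. At an unadjusted p under 0.05 (edgeR) were 6 of 49 members, where 25.6% of all genes were. Class medians were -0.05 for G1 drivers, 0.00 for brakes, 0.18 for S phase and 0.03 for M phase genes. Every KO library lay above every CTRL library in 1 member and below in 3, against 16% and 16.7% of all genes tested. The intervals of most S and M phase genes were wide, for example -1.46 to 1.52 for Top2a and -0.76 to 1.59 for Mcm6, so differences smaller than these were not detectable with these samples. Scaling by total counts in place of TMM factors would move all log2 differences by 0.22 at P14, by -0.11 in the CTRL and by -0.29 in the KO stage comparison, which would turn the sign of the P14 medians of G1 drivers and brakes and of the KO stage median of brakes.

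Ccnd3, cyclin D3, was the member that was higher in P14 KO. It had 68.2, 63.5 and 80.8 CPM in CTRL and 89.3, 102.8 and 108.4 CPM in KO, with no overlap. The log2 fold change was 0.50 ± 0.13 (SE, adjusted p = 0.04997, edgeR), just inside the threshold. Ccnd3 lies on chr17:47505051-47599688 (mm10, plus strand) and shares exonic bases with Bysl on the opposite strand, whose reads cannot be told apart if strand was not used in counting. Ccng1 (chr11:40748552-40755286, minus strand) was lower in KO, at 313.7, 312.9 and 311 CPM against 435, 911 and 515 CPM in CTRL. The KO samples were nearly identical and the CTRL samples spread, with a log2 fold change of -0.99 ± 0.25 (SE, adjusted p = 0.0475, edgeR), and -0.61 (adjusted p = 0.0219) without CTRL replicate 2, the highest sample. Cenpf (chr1:189640614-189688086, minus strand) was lower in KO, at 14.0, 15.4 and 13.4 CPM against 25.2, 19.0 and 32.4 CPM, with no overlap and a log2 fold change of -0.84 ± 0.19 (SE, adjusted p = 0.0340, edgeR).

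Leaving out single libraries changed these calls. Without any 1 of the KO replicates 0 members passed by edgeR, though the log2 differences stayed between 0.45 and 0.58 for Ccnd3, -0.98 and -0.97 for Ccng1 and -0.89 and -0.79 for Cenpf. Without CTRL replicate 1 only Ccng1 passed. Without CTRL replicate 2, Cdkn1a, at 0.55 with all samples (adjusted p = 0.169), was called higher in KO (0.90, adjusted p = 0.0105) and Ccnd3 was not called (0.43, adjusted p = 0.0839), all by edgeR, while Ccng1 and Cenpf were. Without CTRL replicate 3, the sample with the high S and M phase levels, 4 members passed and all were higher in KO, namely Ccnd3, Cenpa, Cenpe and Anln, while Ccng1 (-1.11, adjusted p = 0.0503) and Cenpf (-0.64, adjusted p = 0.0577) no longer did. Without replicate 3 of both groups 0 passed. With the replicate number as a block, 4 members passed, where 12.2% of all genes did, and the one added was Cenpa (0.74 ± 0.16, adjusted p = 0.0319, edgeR). The data showed a pairing by number for replicate 3 only. Of the markers of other cells at P14, 0 of 8 endothelial and 0 of 7 fibroblast markers tested passed by edgeR, and at an unadjusted p under 0.05 also 0, where 25.6% of all genes were. Of 6 smooth muscle and pericyte markers 1, Cspg4, was higher in KO (1.34), while 4 of the 6 were below 0 (median -0.14). Of 7 macrophage and leukocyte markers 0 passed, with 1 below 0 (median 0.40). The CM marker sum was 66748 to 73404 CPM in P14 KO and 91854 to 101130 CPM in P14 CTRL. The part of these differences in the KO comparison was not tested.

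At P90, 1 of 33 members tested passed in KO against CTRL, where 0.39% of the 11808 genes tested did. The other 16 members, 15 M phase genes and E2f1, had too few reads at P90 to be tested. The member was Cenpa (chr5:30666902-30674826, plus strand), with 28.0, 24.7 and 31.7 CPM in CTRL and 51.4, 51.3 and 50.6 CPM in KO. The groups were well apart, and the log2 fold change was 0.86 ± 0.11 (SE, adjusted p = 0.00855, edgeR). Without KO replicate 2 the difference was the same size and the adjusted p was 0.0594, and in a fit of all 12 samples it was 0.221. At P14 the same gene had 39.1, 38.9 and 52.2 CPM in KO and 18.2, 22.1 and 41.3 CPM in CTRL, where the KO range overlapped CTRL replicate 3 (0.67 ± 0.29, adjusted p = 0.189, edgeR).

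Ccng1, Cenpf and Ccnd3 were not called at P90 in the comparison as fitted. Ccng1 was at 1585, 1443 and 1311 CPM in KO and 1854, 2175 and 1753 CPM in CTRL, again without overlap, with a log2 fold change of -0.41 ± 0.11 (adjusted p = 0.126, edgeR). DESeq2 placed it past the threshold (adjusted p = 0.0232), with 2.89% of its tested genes, as did edgeR without the filter on low counts (adjusted p = 0.0180) and with the replicate block (adjusted p = 0.0213). Cenpf differed by -0.02 (interval -0.49 to 0.45) and Ccnd3 by 0.08 (interval -0.14 to 0.31). Class medians at P90 were 0.05 for G1 drivers, -0.18 for brakes, 0.06 for S phase and -0.01 for the 8 M phase genes tested. The S phase genes Mcm2 (0.35, interval 0.02 to 0.68) and Mcm6 (0.60, interval 0.00 to 1.19) did not pass after adjustment (adjusted p = 0.285 and 0.309, edgeR). All Cenpa levels in P90 KO were above those of P90 CTRL. Of the markers of other cells, 0 of 8 endothelial and 0 of 7 fibroblast markers tested passed by edgeR, where 0.39% of all genes did. At an unadjusted p under 0.05 there were 2 and 0, where 16.2% of all genes were. The endothelial median log2 difference was 0.28, with 1 of 8 below 0, and the fibroblast median was 0.05. The endothelial sum was 238 ± 37.1 CPM in P90 CTRL and 292 ± 60.2 CPM in P90 KO (SD, n = 3). Their part in the Cenpa difference was not tested.

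**Figure D4:**
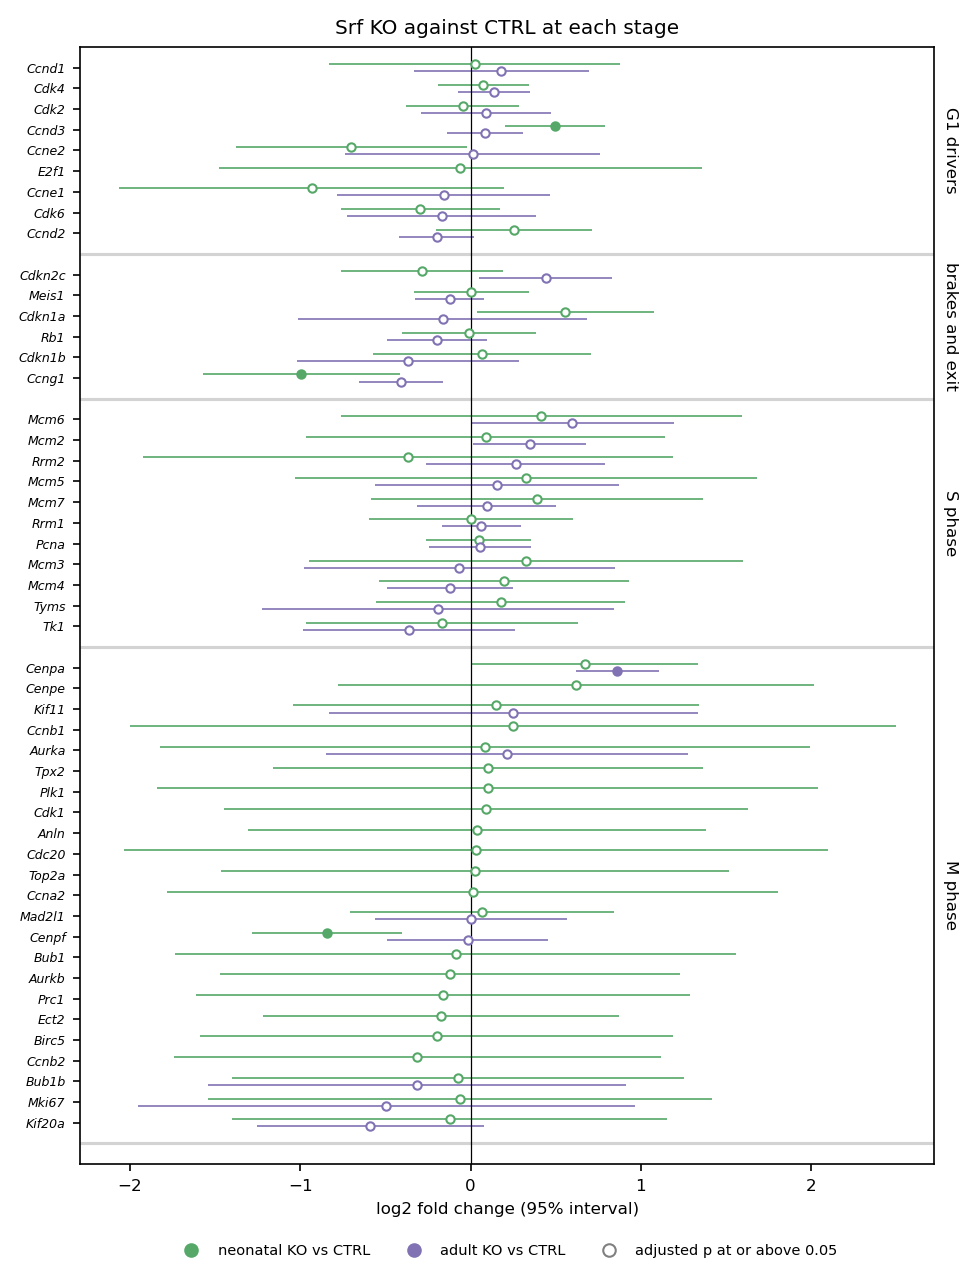
Log2 fold change of KO against CTRL for each member with its 95% interval, at P14 (green) and at P90 (purple), with filled points for an adjusted p under 0.05 (edgeR) and members not tested at P90 shown for P14 alone. Only Ccnd3, Ccng1 and Cenpf at P14 and Cenpa at P90 are filled. The P14 intervals of S and M phase genes span 0, except those of Cenpf and Cenpa.

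A test of whether the KO effect differed between stages (neonatal minus adult) called 0 of 49 members by edgeR, with 3 at an unadjusted p under 0.05 (19.0% of all genes were), and 0 by DESeq2, where edgeR called 1.78% of 12841 genes and DESeq2 8.86% of 10129. The 3 were Cdkn2c (-0.71, interval -1.26 to -0.17, adjusted p = 0.147), Ccnd3 (0.42, interval 0.07 to 0.77, adjusted p = 0.181) and Cenpf (-0.82, interval -1.52 to -0.11, adjusted p = 0.198), all by edgeR. The KO effects on these genes are therefore not shown to differ between P14 and P90. For Ccng1 the difference was -0.57 (interval -1.21 to 0.06) and for Cenpa -0.18 (interval -0.90 to 0.54).

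**Figure D5:**
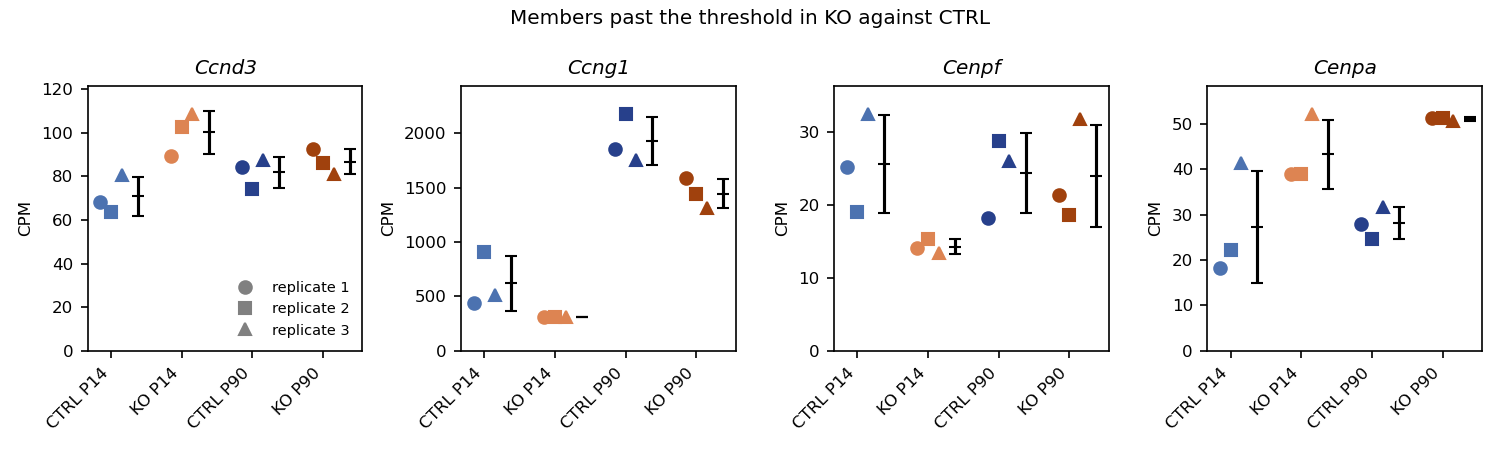
CPM of Ccnd3, Ccng1, Cenpf and Cenpa in each of the 12 samples (linear axes from 0), with marker shape giving the replicate and the black bar the mean ± SD (n = 3). Cenpa is higher in all P90 KO samples, between 50.6 and 51.4 CPM, than in any P90 CTRL sample, and Ccng1 separates P90 from P14 in both genotypes.

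Among the other genes of the pathway, few passed in P14 KO against CTRL, where 3.99% of all genes tested passed higher and 4.6% lower. Myc, a driver of growth and of G1 progression, was higher, at 9.41, 12.1 and 10.4 CPM in KO against 4.08, 1.70 and 3.68 CPM in CTRL (1.75 ± 0.31, adjusted p = 0.0173, edgeR). Ccnh, the cyclin of the Cdk-activating kinase, was lower (-0.52), as were Wee1 (-0.77), a kinase that inhibits Cdk1, and Gmnn (-0.72). Espl1, which encodes separase, the protease that frees sister chromatids, was higher (1.05), at 5.69, 5.36 and 6.41 CPM in KO against 2.44, 2.60 and 3.39 CPM in CTRL. These were 1 higher and 1 lower of 12 other G1 drivers, 1 lower of 22 other brakes, 1 lower of 42 other S phase genes and 1 higher of 49 other M phase genes. Of 19 p53 targets 2 were higher (10.5%), Gdf15 (1.77) and Bbc3 (1.29), while Ccng1, also a p53 target, was lower. At an unadjusted p under 0.05 were 2 of 12 other G1 drivers, 3 of 22 brakes and 4 of 42 S phase genes, where 25.6% of all genes were. Of the other M phase genes 2 of 49 were, and of the p53 targets 7 of 19. At P90, 0 genes of these 5 lists passed by edgeR, with 2 of 10 other G1 drivers, 6 of 21 brakes, 4 of 34 S phase genes, 4 of 14 M phase genes and 4 of 18 p53 targets at an unadjusted p under 0.05, where 16.2% of all genes were.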

How the data were processed

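As the labels and the methods of the study state, RNA of sorted CMs was amplified with SMART-Seq v4 and made into Nextera XT libraries. The submitters' processing notes name CASAVA 1.8, STAR 2.5.3a, featureCounts of Subread 1.5.2 and the build mm10. The authors deposited raw counts per gene in 2 tables, 1 per stage. The strand setting is not given in the sources used here.

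Samples were grouped by title. In R 4.3.3, genes were kept by filterByExpr, scaled by TMM factors, and tested with edgeR 4.0.16 (quasi-likelihood F-test, Benjamini-Hochberg adjustment over all genes tested, threshold 0.05). Each comparison was fitted on its own groups, and the interaction on all 12 samples. DESeq2 1.42.0, RLE scaling, no filter, a replicate block, a fit of all samples and leaving out each library were alternatives. CPM used TMM-scaled library sizes of all 12 samples, and RPKM the exon lengths of the tables. The code was tested on simulated data first. P-values measure the spread between these samples.

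The members and lists were chosen with earlier results of these data known. Any member could be named. Values in every sample were given for members past the threshold in a KO comparison, for the 4 per class with the smallest p in CTRL P90 vs P14 and for the most abundant of each class. Sample values of Cdkn1a were added after they were seen. From other lists up to 4 genes were named by largest change.

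Replicate numbers are shared by the groups. Deviations of same-numbered P14 samples correlated at 0.128, 0.122 and 0.444. All were over 0.1, so a block by number was fitted, and the blocked values stand beside the P14 result. No label gives this pairing. The data singled out only replicate 3, as CTRL 1 with KO 2 (0.163) and CTRL 2 with KO 1 (0.140) correlated more than the same-numbered samples 1 and 2. No pair of replicates agreed within sampling noise.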

Additional observations from a re-analysis of the deposited data

How the results depend on the processing

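Results are counts of members past the threshold by edgeR. In the neonatal KO comparison 3 members passed, 0 to 4 when each library was left out and 0 without replicate 3 of both groups (an alternative chosen after seeing the data), and 3 or 4 under the other alternatives. In the adult KO comparison 1 member passed, with 2 by DESeq2, without the filter on low counts and with the replicate block, 0 in a fit of all 12 samples and 0 to 1 when each library was left out. Same-numbered adult samples correlated at 0.249, 0.0101 and 0.0687, so the numbers did not pair them, and the block raised all calls from 46 to 655. In CTRL P90 vs P14, 26 members passed, 9 to 34 with each library left out, of which 9, 17 and 15 without P90 CTRL replicates 1, 2 and 3, and 22 with the block. In KO P90 vs P14, 38 to 41 passed under every alternative run, and in the interaction 0. Over all genes, neonatal calls numbered 1078, against 1798 by DESeq2, 2088 in the fit of all samples, 111 to 1004 with each library left out and 78 without replicate 3 of both groups. Adult calls numbered 46, against 312 by DESeq2, 701 without the filter, 3 in the fit of all samples and 6 to 51 with each library left out. CTRL stage calls numbered 3607, against 2067 to 4768 with each library left out, and interaction calls 228, against 897 by DESeq2, 474 without the filter, 687 with the block and 4 to 377 with each library left out. The cause of these differences was not tested. The block changed no call of a member in the KO comparisons other than Cenpa at P14 and Ccng1 at P90 (-0.41, adjusted p = 0.0213). By total counts, the summed CPM of G1 drivers was 498 in P14 KO, 265 in P90 CTRL and 266 in P90 KO, and that of brakes 536 in P14 KO.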
